A study of Mus musculus with 7 samples.

Results

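Leptin, prolactin and growth hormone act through one class of cell surface receptor, and 10 genes of their shared pathway were followed in sorted pancreatic β-cells of mice: the receptors Lepr, Prlr and Ghr, the kinase Jak2, the transcription factors Stat3, Stat5a and Stat5b, and the feedback genes Socs2, Socs3 and Cish. The genes were chosen by symbol, and all 10 were found among the 35013 gene symbols measured. Lepr was near the limit of detection in every library, so 9 of the 10 could be tested. Poly-A RNA-seq was done on 7 mice, 1 library per mouse: 3 db/+, 2 db/db and 2 Aldh1a3 KO_db/db. The study asked what loss of Aldh1a3, an enzyme that makes retinoic acid and marks dedifferentiated β-cells, does to diabetic β-cells.

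The KO_db/db mice carried Lepr db/db and Aldh1a3 fl/fl together with RIP-Cre herr and tdT fl/+, where RIP is the rat insulin promoter that drives Cre in β-cells. The db/db controls carried Lepr db/db and Aldh1a3 fl/+ together with RIP-Cre herr and tdT fl/+, and the db/+ controls the same with Lepr db/+. All groups therefore carried Cre and at least 1 floxed Aldh1a3 allele, and all carried at least 1 db allele, a Lepr mutation that disturbs splicing and removes the signalling tail of the long receptor. Mice with both alleles mutated (db/db) grow obese and diabetic, whereas carriers (db/+) stay lean. Adult males and females of a single age range were used and were fasted before islets were isolated. The methods describe sorting on YFP and AldeRed fluorescence, and the gate used for these libraries is not given in the sources used here. Which mice were male is likewise not given in the sources used here. By the Y-linked counts given below, db/+ mouse 3 looks like the only male.

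In this pathway a hormone brings its receptors together, and the bound kinase JAK2 phosphorylates the receptor and a STAT protein, which enters the nucleus and turns on genes. Leptin receptors mainly use STAT3, while prolactin and growth hormone receptors mainly use STAT5A and STAT5B. Among the genes that STATs switch on are SOCS3 and CISH/SOCS2, which bind the receptor or kinase and shut the signal down. In β-cells the prolactin receptor is best known for driving the growth of islets in pregnancy, when placental lactogens rise.

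STAT proteins bind a short palindrome, here written TTCNNNGAA, which is its own reverse complement. It was searched in RefSeq promoter windows of GRCm38.p6, from 250 bases before to 50 bases after each annotated start, and 2726 of all 32851 windows held it (8.30%). Of the 10 genes, 9 matched by symbol, in 15 windows (Socs2 had none). The motif stood in a window of Cish, Prlr and Socs3, and all 3 sites are shown. Jak2, Stat3 and Stat5b, whose levels also differ between groups below, had no match in their windows. Capitals mark the motif, and each run is read on the strand of its gene.
Cish, chr9:107296654-107296683, plus strand: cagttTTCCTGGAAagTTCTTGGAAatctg
Prlr, chr15:10223785-10223814, plus strand: ggcaaaatgagTTCTAGGAAtaagggatat
Socs3, chr11:117969502-117969531, minus strand: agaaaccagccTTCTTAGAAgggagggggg
Cish held 2 copies, with first bases at 1 and 12 counted from the start, and 150 of all windows held 2 or more (0.457%). The Cish site lies in an annotated exon. The Prlr site begins 110 bases before one of its alternative starts and the Socs3 site 154 bases before its start, and both lie within the annotated gene but outside its exons in GENCODE M21. A match is a description of the letters and no evidence that a STAT was bound.

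Levels are given as CPM (counts per 1000000 counts of the scaled library total), scaled by the TMM method of edgeR over the 7 libraries, in which total counts ran from 27496645 to 35852785. The β-cell marker genes were present in all libraries (Ins1 and Ins2 together held 21.8% to 36.1% of counts), with the 10 markers summing to 395000 to 443000 CPM in db/+, 202000 to 225000 CPM in db/db and 226000 to 298000 CPM in KO_db/db. As a share of counts the sum was 34.3% to 38.7% in db/+, 27% and 24.8% in db/db, and 26.4% and 25.9% in KO_db/db. On that scale KO_db/db and db/db overlapped. Most of the sum was Ins1 and Ins2, and Iapp was higher in db/db (22600 and 27000 CPM) than in db/+ (17600 to 22400 CPM). Aldh1a3 stood at 4.97 and 7.89 CPM in KO_db/db, 98.4 and 194 CPM in db/db and 0.205, 0.0729 and 0.589 CPM in db/+. A pair of libraries stood apart: KO_db/db mouse 1 had 139000 CPM over 20 acinar genes, against 11600 CPM in KO_db/db mouse 2 and at most 340 CPM in the other groups, and db/+ mouse 3 had 2911 counts from Y-linked genes against 20 to 79 elsewhere. Macrophage markers summed to 55.7 to 73.7 CPM in db/db, 32.8 to 56.9 CPM in db/+ and 21.6 to 33.4 CPM in KO_db/db, nearly all of it from C1qa (20.8 to 71.2 CPM), while the other 6 markers were at or below 1.56 CPM each. Lymphocyte markers summed to 1.23 to 2.84 CPM in db/db, 21.5 to 36.3 CPM in db/+ and 19.8 to 40 CPM in KO_db/db, mostly from Cd79a. Alpha cell markers summed to 2300 to 2690 CPM in db/db, 1310 to 2030 CPM in db/+ and 1340 to 1770 CPM in KO_db/db. Most of that sum in db/db was Ttr (1720 to 1910 CPM, against 504 to 679 CPM in db/+ and 549 to 616 CPM in KO_db/db). The alpha cell hormone gene Gcg was not higher in db/db (349 to 602 CPM, against 381 to 1180 CPM in db/+ and 619 to 1030 CPM in KO_db/db). Delta cell markers summed to 87.4 to 169 CPM in db/db, 381 to 2330 CPM in db/+ and 519 to 652 CPM in KO_db/db. Markers at 0 throughout a group included the acinar Prss1 in db/+ and the lymphocyte Cd3e in KO_db/db. The part of these cells in the results was not tested, and in bulk samples fewer cells of a type and less RNA per cell cannot be told apart.

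The scale itself bears on the comparisons with db/+. The TMM factors were 0.869 to 0.8745 in db/+, 1.202 and 1.231 in db/db, and 0.886 and 1.149 in KO_db/db. If libraries were scaled by their total count alone, an alternative chosen after seeing the data, the median log2 fold change of all genes moved from 0.01 to 0.50 in db/db against db/+, from 0.00 to 0.21 in KO_db/db against db/+ and from -0.02 to -0.28 in KO_db/db against db/db. The share of called genes that were higher then rose from 52.5% to 88.2% in the first of these and from 53.4% to 82.0% in the second, and it was 39.5% and then 27.6% in the third. Fold changes below are therefore relative to the bulk of genes, and a gene whose call depends on this choice is named where it is described.

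Compared to db/+, db/db β-cells had lower Prlr, Stat5b and Socs2 and higher Jak2 and Socs3 mRNA, relative to the bulk of genes. In all, 2 of the 9 genes tested rose and 3 fell in db/db (55.6%), where 37.8% of all 13406 genes tested passed the same threshold (19.9% were higher, 18% lower), an adjusted p under 0.05 in edgeR's quasi-likelihood test. In KO_db/db against db/+, 2 rose and 3 fell (55.6%), where 38.4% of all 13228 genes passed (20.5% were higher, 17.9% lower). In KO_db/db against db/db, 0 of the 9 passed, where 0.319% of all 13486 genes did. In this last comparison 1 of the 9 genes had an unadjusted p under 0.05 (20.9% of all genes), DESeq2 called 1 (Stat3), and edgeR without a filter on low counts or with total-count scaling also called 1 (Cish). The comparisons with db/+ share its 3 libraries, so their fold changes are not independent. On the TMM scale, groups did not overlap for 6 of the 9 genes in db/db against db/+ (63.3% of all genes). The same held for 8 in KO_db/db against db/+ (64.1%) and for 6 in KO_db/db against db/db (57.5%).

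**Figure D1:**
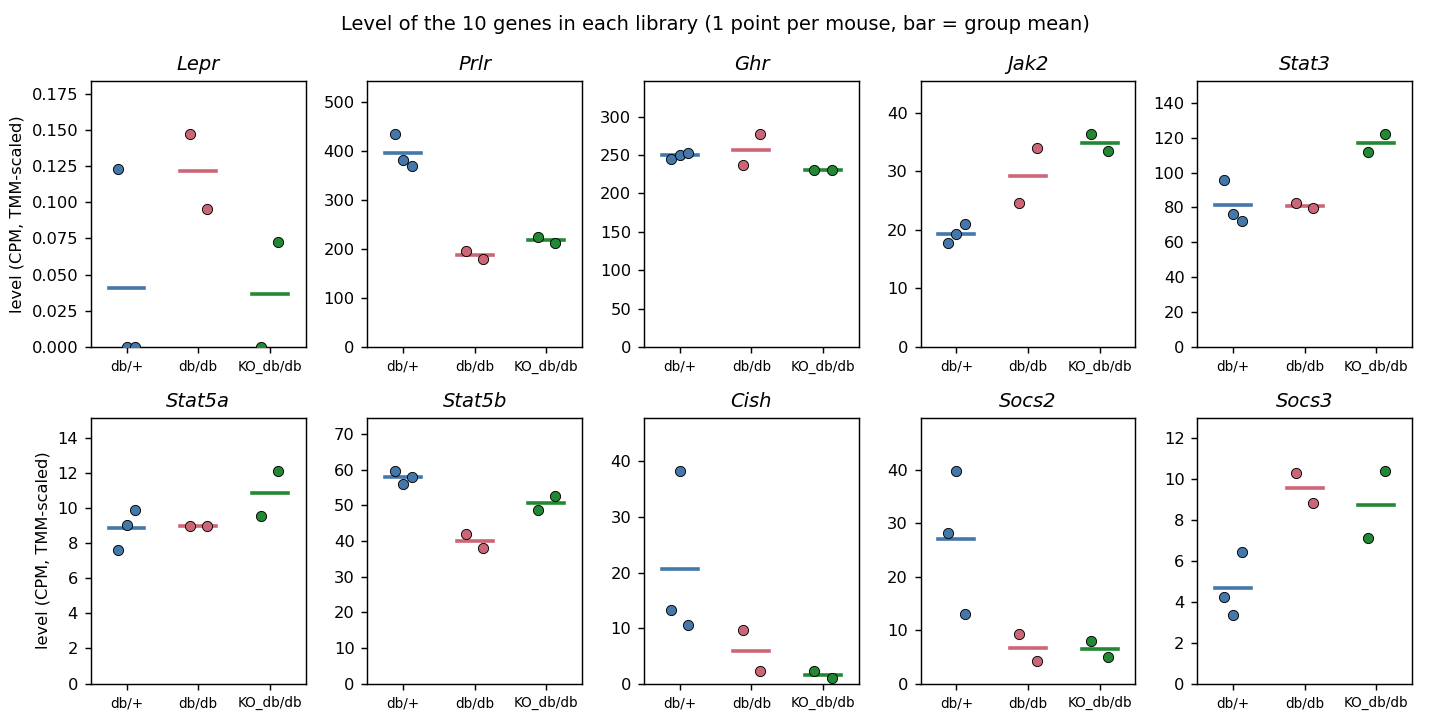
Level of each of the 10 genes in CPM (vertical axes, linear and starting at 0, scaled separately per gene), with 1 point per mouse and a bar at the group mean. Prlr lay at 369 CPM or above in the 3 db/+ libraries and at 225 CPM or below in the other 4, and Jak2 showed the opposite order.

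Lepr (chromosome 4, GRCm38 101717404 to 101815352, plus strand), which encodes the leptin receptor and carries the db mutation, had 3, 0 and 0 counts in db/+, 5 and 4 in db/db, and 0 and 3 in KO_db/db. These are at or near the floor of 3 counts, which corresponds to 0.0717 to 0.123 CPM, so no difference between the groups was detectable at this depth. Counts were summed over the transcripts of a gene, so they do not tell the mutated long form from the others. Leprot, the neighbouring gene on the same strand, which encodes a regulator of receptor transport to the cell surface, shared 0 exon bases with Lepr in GENCODE M21 and was well above the floor. It had 24 and 28.7 CPM in KO_db/db, 37.4 and 34.1 CPM in db/db and 36.4, 35.0 and 36.6 CPM in db/+. Against db/+, Leprot fell by a log2 fold change of 0.44 in KO_db/db (SE 0.112, adjusted p = 0.0220 from edgeR). Its relative Leprotl1 was at 45.9 and 47.6 CPM in db/db and 49.5 and 51.3 CPM in KO_db/db, all below the 68.0 to 80.6 CPM of db/+. Leprotl1 fell by 0.70 in db/db (edgeR adjusted p = 0.00468) and by 0.57 in KO_db/db (adjusted p = 0.00673) against db/+. With total-count scaling these 3 falls were not called (adjusted p = 0.503 for Leprot, 0.180 and 0.181 for Leprotl1). Leprot of db/db against db/+ was then at 0.47 and called (edgeR adjusted p = 0.00906).

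Prlr (chromosome 15, 10177238 to 10349180, plus strand), the prolactin receptor, showed the clearest separation of the receptors. Its level was 435, 383 and 369 CPM in db/+, 197 and 179 CPM in db/db, and 225 and 212 CPM in KO_db/db. All 4 libraries with Lepr db/db were below all 3 db/+ libraries. Prlr was 2.12-fold lower in db/db than in db/+ (log2 fold change -1.09, SE 0.128, adjusted p = 0.00157 from edgeR) and 1.80-fold lower in KO_db/db than in db/+ (-0.85, SE 0.128, adjusted p = 0.00386). Prlr kept its direction and its call under every alternative tried in both comparisons, with log2 fold changes from -1.16 to -0.59 and from -0.89 to -0.64. Both values nearest to 0 came from total-count scaling. Against db/db, the KO_db/db libraries were 1.16-fold higher, which did not pass the test (0.22, SE 0.146, adjusted p = 0.436). Reads of Prlr may in part belong to Gm21973, which overlaps it on the same strand, and 2.02% of the 31-base stretches of Prlr occur in any other gene.

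Ghr (chromosome 15, 3317760 to 3583492, minus strand), the growth hormone receptor, was nearly level. It had 245, 250 and 253 CPM in db/+, 237 and 277 CPM in db/db, and 230 and 230 CPM in KO_db/db. The db/db range enclosed that of db/+, and the log2 fold change was 0.04 (SE 0.116, edgeR adjusted p = 0.833). With total-count scaling it was 0.53 (adjusted p = 0.0102), close to the shift of 0.50 that all genes took. Ghr of KO_db/db against db/+ stood at -0.11 (SE 0.0956, adjusted p = 0.396), and at 0.11 with total-count scaling.

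The ratio of the receptors does not depend on the scaling of libraries. The ratio of Prlr to Ghr counts was 1.77, 1.54 and 1.46 in db/+, 0.829 and 0.645 in db/db, and 0.980 and 0.924 in KO_db/db, so the groups did not overlap. This ratio was formed after the values were seen and is given as a description. Per kilobase of exon, Ghr and Prlr were the most abundant of the 10 genes in db/+, at means of 27.5 and 25.8 CPM per kb, and their ranges overlapped there. Exon length was the union of all annotated exons of a gene (9.053 kb for Ghr, 15.34 kb for Prlr), not the length of the transcripts expressed. The order between genes therefore depends in part on the annotation. In db/db Ghr (28.4 CPM per kb) lay above Prlr (12.2 CPM per kb) in both libraries, and likewise in KO_db/db (25.4 against 14.3 CPM per kb).

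Genes whose levels followed those of Prlr most closely across the 7 libraries were Hnrnpc, which encodes an RNA-binding protein, Eef1akmt1, a methyltransferase of a translation factor, and Ate1, an arginine transferase of protein breakdown. Their root mean square differences from Prlr, on log2 CPM centred over the libraries, were 0.0568, 0.0650 and 0.0698 among 11194 candidates. Hnrnpc had 144, 124 and 114 CPM in db/+ and 56.9 to 74.0 CPM in the other 4 libraries. The nearest genes to Ghr were Gusb (0.0369), Lrrc28 (0.0463) and Exoc5 (0.0513). Ranking by Pearson's r in place of the distance named other genes for both receptors, so the lists are particular to the measure.

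Jak2 (chromosome 19, 29251828 to 29313080, plus strand), the kinase bound to all 3 receptors, moved opposite to Prlr. Its level was 17.7, 19.2 and 20.9 CPM in db/+, 24.5 and 34.0 CPM in db/db, and 36.3 and 33.4 CPM in KO_db/db. Every library with Lepr db/db was above every db/+ library. Jak2 was 1.51-fold higher in db/db (log2 fold change 0.59, SE 0.171, adjusted p = 0.0337 from edgeR) and 1.81-fold higher in KO_db/db (0.86, SE 0.112, adjusted p = 0.00241) than in db/+. The rise in db/db was no longer called without db/db mouse 2, which had the higher of its 2 values (0.33, adjusted p = 0.152), or without any 1 of the db/+ mice (adjusted p = 0.112, 0.0903 and 0.0527 without mice 1, 2 and 3). The rise in KO_db/db held under every alternative, from 0.80 without KO_db/db mouse 1 to 1.07 with total-count scaling. KO_db/db and db/db overlapped (0.25, SE 0.200, adjusted p = 0.507).

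Stat3 (chromosome 11, 100885098 to 100939540, minus strand), the factor of leptin and interleukin 6 signalling, was highest in KO_db/db. It had 112 and 122 CPM there, 82.5 and 79.7 CPM in db/db, and 95.7, 76.3 and 72.3 CPM in db/+. db/db lay within the db/+ range (log2 fold change -0.02, SE 0.143, edgeR adjusted p = 0.936). With total-count scaling this fold change was 0.47 and called (edgeR adjusted p = 0.0273), close to the shift of 0.50 that all genes took. Stat3 was 1.44-fold higher in KO_db/db than in db/+ (0.53, SE 0.134, adjusted p = 0.0223). This call was lost without KO_db/db mouse 1 (adjusted p = 0.0636), KO_db/db mouse 2 (0.106) or db/+ mouse 2 (0.0748), and with the mouse number as a replicate block (0.0798). The KO_db/db libraries were also 1.43-fold above db/db, with no overlap on the TMM scale. The difference did not pass in edgeR (0.52, SE 0.129, unadjusted p = 0.00878, adjusted p = 0.135), while DESeq2 gave an adjusted p = 0.0139. With total-count scaling it was 0.27 and not called, and KO_db/db and db/db overlapped. KO_db/db mouse 1 holds the acinar signal described above. Without it the difference from db/db was 0.58, the highest of the alternatives.

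Stat5b and Stat5a lie beside Stat3 on chromosome 11 (100780731 to 100850724, minus strand, and 100859351 to 100885169, plus strand). They encode the close relatives that prolactin and growth hormone use. Stat5b had 59.7, 56.1 and 58.1 CPM in db/+, 42.0 and 38.0 CPM in db/db, and 48.7 and 52.7 CPM in KO_db/db. On the TMM scale the 3 groups did not overlap, with KO_db/db in the middle. With total-count scaling they overlapped, and KO_db/db was at 0.04 against db/+ and at 0.09 against db/db. Stat5b was 1.46-fold lower in db/db than in db/+ (-0.55, SE 0.105, adjusted p = 0.00821 from edgeR). This call held when any 1 library was left out but not with total-count scaling (-0.06, adjusted p = 0.671), where the bulk of genes stood at 0.50. The differences of KO_db/db from db/+ (-0.19, SE 0.0878, adjusted p = 0.139) and from db/db (0.34, SE 0.136, adjusted p = 0.243) did not pass.

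Stat5a was lower and more even. It had 7.61, 9.04 and 9.90 CPM in db/+, 8.98 and 8.96 CPM in db/db, and 9.56 and 12.1 CPM in KO_db/db. No comparison passed on the TMM scale. The log2 fold changes were 0.01 in db/db against db/+ (SE 0.174, edgeR adjusted p = 0.980) and 0.30 in KO_db/db against db/+ (SE 0.183, adjusted p = 0.232). In KO_db/db against db/db the change was 0.27 (SE 0.200, adjusted p = 0.463). With total-count scaling db/db against db/+ stood at 0.50 and was called (edgeR adjusted p = 0.0488), close to the shift of 0.50 that all genes took. Of the counts of both genes, Stat5b took 85.4% to 88.7% in db/+, 80.9% and 82.4% in db/db, and 81.3% and 83.6% in KO_db/db, a description formed after the values were seen. The split has some uncertainty, since 15.1% of the 31-base stretches of Stat5b occur in Stat5a. Stat5a also overlaps Stat3 by 72 bases on the opposite strand, and whether counting used strand is not given in the sources used here.

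Among the feedback genes, Socs2 fell in db/db and KO_db/db and Cish in KO_db/db against db/+, both usual readouts of STAT5, while Socs3, the usual readout of STAT3, rose in db/db. Cish (chromosome 9, 107296026 to 107302784, plus strand) spread more than any of the other tested genes. It had 13.2, 38.3 and 10.6 CPM in db/+, 9.60 and 2.29 CPM in db/db, and 2.22 and 1.04 CPM in KO_db/db. On the TMM scale the 3 groups did not overlap, in the order db/+, db/db, KO_db/db. With total-count scaling db/db mouse 1 lay above db/+ mouse 3, so db/db and db/+ overlapped. Cish was 13.1-fold lower in KO_db/db than in db/+ (log2 fold change -3.71, SE 0.709, adjusted p = 0.00842 from edgeR), and this call held under every alternative, from -4.30 without KO_db/db mouse 1 to -2.89 without db/+ mouse 2.

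In db/db against db/+, Cish stood at -1.82 (SE 0.757, adjusted p = 0.101 from edgeR) and was not called. It was called without db/db mouse 1, which had the higher of the db/db values (-3.18, adjusted p = 0.0391), and with no filter on low counts (adjusted p = 0.0106). In KO_db/db against db/db it was at -1.88 (SE 0.771, adjusted p = 0.249), and at -0.51 without db/db mouse 1. With total-count scaling it was at -2.18 there (adjusted p = 0.000330 from edgeR). That adjusted p holds for that fit only, and its limits are given with the lists below. Cish overlaps Gm17040 and Gm17041 on the opposite strand, and 10.4% of its 31-base stretches occur in other genes.

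Socs2 (chromosome 10, 95385362 to 95417180, minus strand), a brake on growth hormone signalling, had 28.2, 39.8 and 13.0 CPM in db/+, 9.21 and 4.28 CPM in db/db, and 8.04 and 4.90 CPM in KO_db/db. Every library with Lepr db/db was below every db/+ library, and db/db and KO_db/db overlapped. Socs2 was 4.05-fold lower in db/db (log2 fold change -2.02, SE 0.525, adjusted p = 0.0239 from edgeR) and 4.19-fold lower in KO_db/db (-2.07, SE 0.484, adjusted p = 0.0167) than in db/+. The first call was lost without db/db mouse 2 (-1.56, adjusted p = 0.102), db/+ mouse 1 (adjusted p = 0.0599) or db/+ mouse 2 (-1.62, adjusted p = 0.0605), and the second without KO_db/db mouse 2 (-1.75, adjusted p = 0.0821). The lowest db/+ value of both Cish and Socs2 was in mouse 3, the library with the Y-linked counts. Without it Socs2 was at -2.35 and -2.40 and stayed called in both comparisons (adjusted p = 0.0102 and 0.00431), and Cish was at -4.03 in KO_db/db against db/+ (adjusted p = 0.00832).

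Socs3 (chromosome 11, 117966079 to 117970047, minus strand), a brake on leptin and interleukin 6 signalling, had 4.22, 3.36 and 6.44 CPM in db/+, 10.3 and 8.81 CPM in db/db, and 7.10 and 10.4 CPM in KO_db/db. Again the db/+ libraries did not overlap with the others. Socs3 was 2.02-fold higher in db/db than in db/+ (log2 fold change 1.02, SE 0.288, adjusted p = 0.0317 from edgeR), a call lost without db/db mouse 1 (adjusted p = 0.113), db/db mouse 2 (0.0643), db/+ mouse 1 (0.0936) or db/+ mouse 2 (0.0749). In KO_db/db it was at 0.92 (SE 0.313, adjusted p = 0.0570), just short of the threshold. There it was called by DESeq2 (0.0257), with no filter (0.0228), with all 7 libraries in one fit (0.0496), with the replicate block (0.0460), with total-count scaling (0.0284) and without db/+ mouse 3 (0.0201). KO_db/db and db/db overlapped (-0.12, SE 0.252, adjusted p = 0.806). Macrophages also express Socs3, and their part in its level was not tested.

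**Figure D2:**
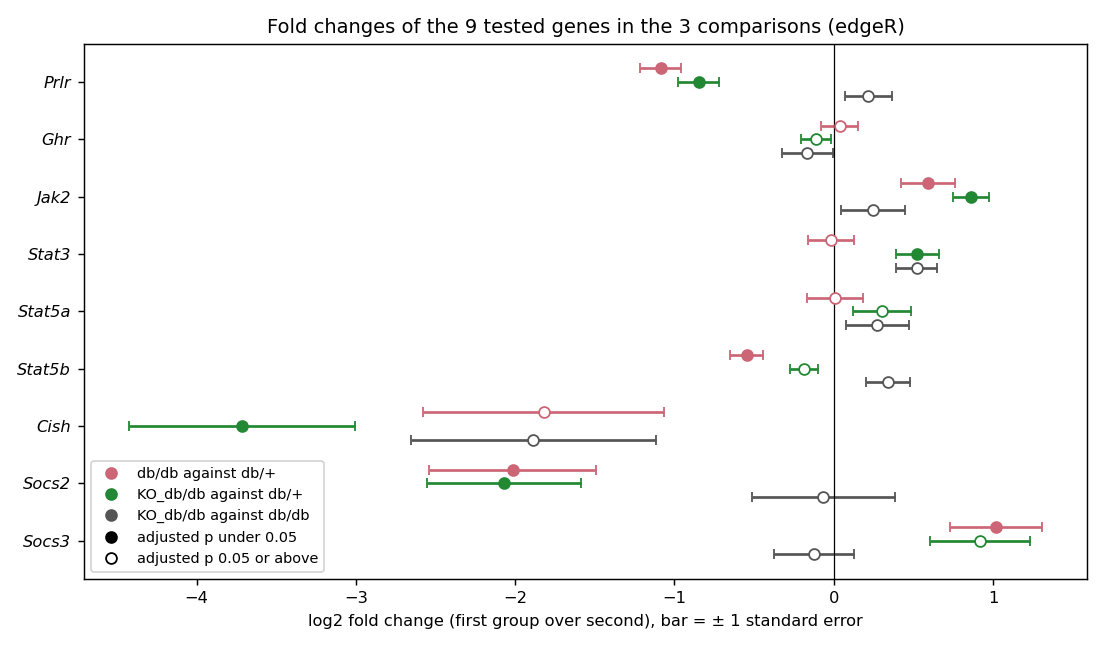
Log2 fold changes of the 9 tested genes in the 3 comparisons, first group over second, with bars of 1 standard error and filled points where the adjusted p of edgeR was under 0.05. Prlr, Socs2 and Cish lie left of 0 in both comparisons with db/+, and no point of KO_db/db against db/db is filled.

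The feedback genes can be set against each other within a library. The ratio of Socs3 to Cish counts was 0.319, 0.0875 and 0.610 in db/+, 1.07 and 3.84 in db/db, and 3.20 and 10 in KO_db/db. The ratio of Socs3 to Socs2 counts was 0.149, 0.0842 and 0.496 in db/+, 1.12 and 2.06 in db/db, and 0.883 and 2.13 in KO_db/db. Both ratios were below 1 in the 3 db/+ libraries and higher in the other 4, with no overlap with db/+. They were chosen after the values were seen and carry no test.

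**Figure D3:**
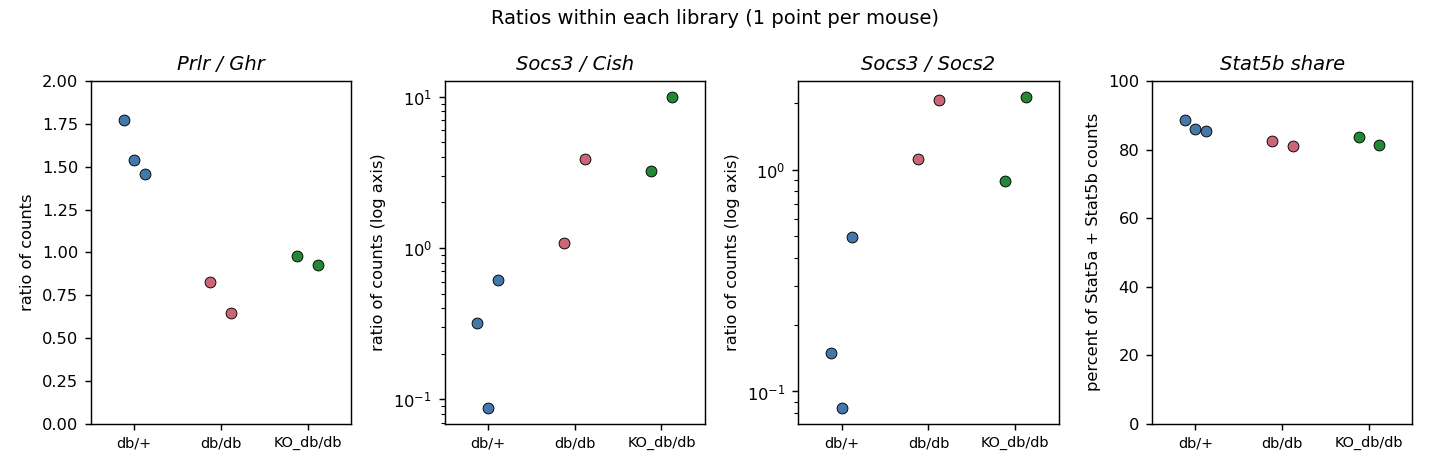
Ratios of counts within each library, 1 point per mouse, for Prlr to Ghr (linear axis), Socs3 to Cish and Socs3 to Socs2 (log axes), and Stat5b as a percent of Stat5a and Stat5b together. All 3 db/+ libraries stand apart from the other 4 in each ratio of the first 3 panels.

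Per kilobase of exon, with the union lengths given above, the levels in db/+ fell in the order Ghr, Prlr, Stat5b (10.5 CPM per kb), Stat3 (8.55), Jak2 (3.83), Cish (3.23), Socs2 (2.83), Socs3 (1.62), Stat5a (1.24) and Lepr (0.00581). The ranges of neighbours overlapped for Ghr and Prlr, for Cish with Jak2 and with Socs2, for Socs2 and Socs3, and for Socs3 and Stat5a. Stat5b and Stat3 did not overlap in db/+ (10.1 to 10.8 against 7.58 to 10 CPM per kb). In KO_db/db Stat3 (12.2 CPM per kb) was above Stat5b (9.15 CPM per kb) in both libraries, and likewise in db/db (8.51 against 7.22 CPM per kb). Jak2 and Stat3, at 3.83 and 8.55 CPM per kb in db/+, did not overlap.

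Of the other JAKs and STATs, 6 of 7 were tested, and 0 rose and 4 fell in db/db against db/+ (66.7%, where 37.8% of all genes were called and 18% were called lower). Their median log2 fold change was -0.62 where the median of all genes was 0.01. Stat6, the factor of interleukin 4, had 18.5, 20.3 and 16.2 CPM in db/+, 10.8 and 12.4 CPM in db/db, and 21.9 and 19.4 CPM in KO_db/db. It fell in db/db by 0.67 (adjusted p = 0.0168 from edgeR), the kinase Tyk2 by 0.67 (adjusted p = 0.0373) and the kinase Jak1 by 0.58 (adjusted p = 0.00803). With total-count scaling the median of this list was -0.13 and none of the 4 falls was called (Stat6 at -0.18, adjusted p = 0.386). In KO_db/db against db/+, 0 rose and 2 fell (33.3%, where 38.4% of all genes were called), with a median of -0.13. Among them was Stat2, at -0.78 (adjusted p = 0.0432), which stood at -0.53 with total-count scaling and was not called (adjusted p = 0.248). Stat6 and Jak1 were at 0.18 and 0.25 there and did not pass (edgeR adjusted p = 0.338 and 0.0868).

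The other cytokine receptors that signal through JAKs moved in both directions. Of 27 listed, 14 were tested, and 4 rose and 4 fell in db/db against db/+ (57.1%, where 37.8% of all genes were called; median 0.19). Il6st encodes gp130, the subunit that interleukin 6, LIF and related cytokines share. It had 102, 152 and 165 CPM in db/+, 8.22 and 7.05 CPM in db/db, and 38.3 and 111 CPM in KO_db/db. The db/db values were below those of both other groups, and Il6st fell by 4.20 on the log2 scale against db/+ (SE 0.255, adjusted p = 0.000400 from edgeR). In KO_db/db it was 3.29 above db/db (adjusted p = 0.0844) and at -0.89 against db/+ (adjusted p = 0.145), and neither passed.

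Il6ra, the receptor subunit that binds interleukin 6, moved the other way. It had 83.5, 99.6 and 95.7 CPM in db/+, 332 and 280 CPM in db/db, and 264 and 232 CPM in KO_db/db. Il6ra rose by 1.71 in db/db (edgeR adjusted p = 0.000577) and by 1.42 in KO_db/db (adjusted p = 0.000735) against db/+. Cntfr, the receptor subunit for ciliary neurotrophic factor, had 111, 89.7 and 76.1 CPM in db/+, 347 and 222 CPM in db/db, and 100 and 54.9 CPM in KO_db/db. It rose by 1.61 in db/db against db/+ (edgeR adjusted p = 0.00266), and KO_db/db overlapped with db/+ (-0.25, adjusted p = 0.496). Il11ra1, the subunit for interleukin 11, had 17.6, 17.2 and 18.7 CPM in db/+, 4.46 and 7.64 CPM in db/db, and 14.6 and 14.2 CPM in KO_db/db, and fell in db/db (-1.56, adjusted p = 0.00401). For KO_db/db against db/+, 2 of the 14 receptors rose and 0 fell (14.3%, where 38.4% of all genes were called; median -0.04).

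Of 18 further regulators of the pathway, all tested in db/db against db/+, 5 rose and 2 fell (38.9%, where 37.8% of all genes were called; median 0.21), a share near that of all genes. Sh2b3, an adaptor that restrains JAK2, had 5.03, 3.28 and 4.64 CPM in db/+, 9.24 and 11.8 CPM in db/db, and 10.8 and 9.78 CPM in KO_db/db. It rose by 1.27 in db/db (edgeR adjusted p = 0.00761) and by 1.26 in KO_db/db (adjusted p = 0.00619). The adaptor Sh2b2 had 0, 0 and 4 counts in db/+, 73 and 24 in db/db, and 2 and 5 in KO_db/db, and it is given as counts because db/+ was at the floor. Socs4, a further SOCS gene, fell by 0.74 in db/db (adjusted p = 0.00825) and by 0.54 in KO_db/db (adjusted p = 0.0328), and neither was called with total-count scaling (adjusted p = 0.184 and 0.373). Against db/+, 17 were tested in KO_db/db, and 5 rose and 5 fell (58.8%, where 38.4% of all genes were called; median 0.31). Among them Ptpn1, a phosphatase of JAK2 chosen here after its values were seen, had 51.3 to 54.4 CPM in db/+, 77.4 and 86.9 CPM in db/db, and 96.6 and 89.4 CPM in KO_db/db, and was called higher in both comparisons (0.63 and 0.83, edgeR adjusted p = 0.00469 and 0.00120).

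Of 17 listed genes known to answer to lactogens in islets, 15 were tested, and 2 rose and 5 fell in db/db (median -0.20) and 2 rose and 4 fell in KO_db/db (median -0.06) against db/+. The shares called were 46.7% and 40%, beside 37.8% and 38.4% of all genes. Tph1, the serotonin-making enzyme that rises in islets in pregnancy, had 0 to 3 counts in every library. Slc2a2, the glucose transporter of β-cells, had 1210, 1060 and 1150 CPM in db/+, 130 and 66.2 CPM in db/db, and 374 and 230 CPM in KO_db/db. It fell by 3.55 in db/db (edgeR adjusted p = 0.000766) and by 1.91 in KO_db/db (adjusted p = 0.00224). Slc2a2 is also one of the β-cell markers, whose sum was lower in db/db and KO_db/db than in db/+, as given above.

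Ivd, an enzyme of leucine breakdown, had 60.8, 69.5 and 55.4 CPM in db/+, 10.9 and 21.6 CPM in db/db, and 58.3 and 59.5 CPM in KO_db/db. Ivd fell in db/db (-1.93, edgeR adjusted p = 0.00341), and KO_db/db lay within the db/+ range (-0.06, adjusted p = 0.686). Matn2, a matrix protein, fell by 1.88 in db/db (adjusted p = 0.000837) and by 1.27 in KO_db/db (adjusted p = 0.00952). Ccnd2, the D-type cyclin of β-cells, had 747 to 851 CPM in db/+, 397 and 368 CPM in db/db, and 733 and 590 CPM in KO_db/db, and fell in db/db (-1.10, adjusted p = 0.00164) while its value of -0.29 in KO_db/db did not pass (adjusted p = 0.208). Whether the effects in db/db and KO_db/db differ is the comparison of these groups, in which 0 genes of any list passed. With total-count scaling 13 passed there, where 9.05% of all 13486 genes did, among them Il6st (3.12), Cntfr (-2.18), Slc2a2 (1.32) and Ivd (1.59), with adjusted p = 1.8e-18, 1.23e-08, 0.00161 and 2.46e-05 from edgeR. In that fit the genes called rose from 43 to 1220, while those with an unadjusted p under 0.05 fell from 2814 to 2640. Why was not tested. These adjusted p hold for that fit only and rest on 2 mice per group, with Il6st at 38.3 and 111 CPM in KO_db/db.

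Of 12 known STAT3 target genes, 10 were tested, and 3 rose and 1 fell in db/db against db/+ (median 0.26), while 2 rose and 0 fell in KO_db/db (median 0.38). These shares, 40% and 20%, were near and below those of all genes (37.8% and 38.4%). Myc, a growth regulator, rose in db/db by 2.22 (edgeR adjusted p = 0.00994), from 0.584 to 1.66 CPM in db/+ to 6.37 and 4.18 CPM. Fos and Junb, genes of the immediate early response, rose by 2.13 and 1.10 (adjusted p = 0.00251 and 0.00745). Fos had 772 and 360 CPM in db/db, 55.1 and 290 CPM in KO_db/db and 118 to 134 CPM in db/+. Junb had 44.7 and 27.6 CPM in db/db, 40.3 and 42.9 CPM in KO_db/db and 15.3 to 17.7 CPM in db/+, and rose in KO_db/db by 1.32 (adjusted p = 0.000735). Vegfa, the vascular growth factor, fell by 0.56 in db/db (adjusted p = 0.00606, or 0.583 with total-count scaling) and was at -0.02 in KO_db/db (adjusted p = 0.861).

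**Figure D4:**
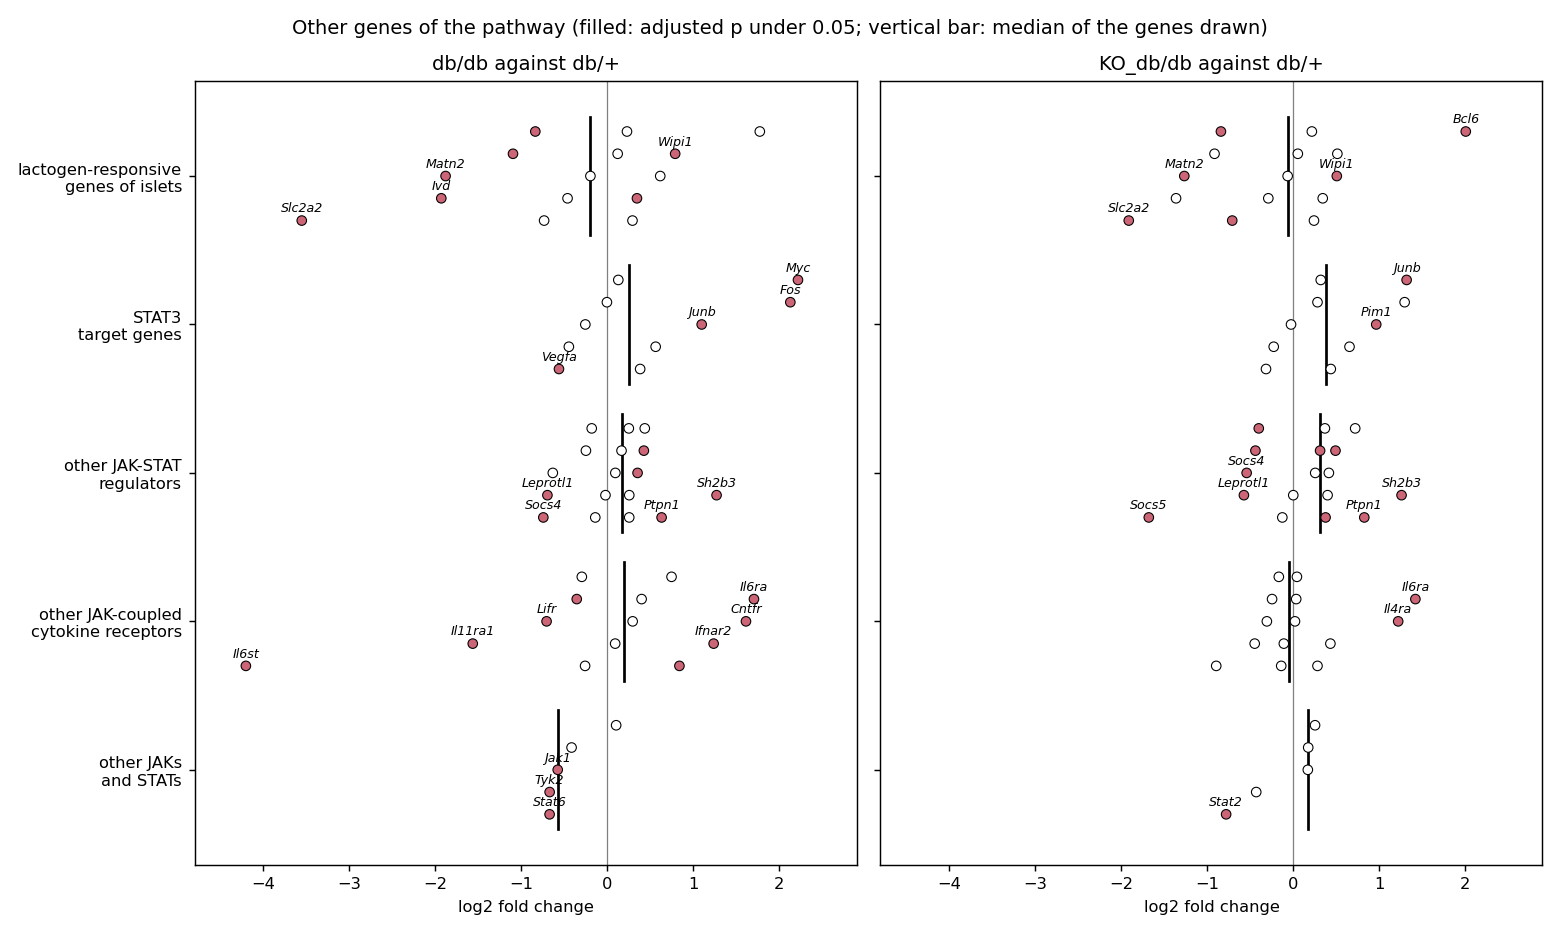
Log2 fold changes of the other genes of the pathway in db/db (left) and KO_db/db (right) against db/+, 1 point per tested gene, grouped by list, with filled points where the adjusted p of edgeR was under 0.05 and a vertical bar at the median of the genes drawn. Sh2b2 is left out because db/+ was at the floor, and 1 of the other JAKs and STATs is not drawn. Il6st stands farthest to the left in db/db, at -4.20, and the other JAKs and STATs lie mostly left of 0 in the left panel.

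Of 13 ligands listed, 1 was tested, the LIF-related cytokine Ctf1, at 5.85, 4.56 and 6.23 CPM in db/+, 3.55 and 3.51 CPM in db/db, and 5.38 and 4.47 CPM in KO_db/db. Its difference in db/db against db/+ did not pass (-0.66, edgeR adjusted p = 0.0607). Lep, Prl, Gh, Prl3b1, Prl3d1 and Il6 had 0 counts in every library, so each lay below the floor of 0.0717 to 0.123 CPM. Igf1, the growth factor that growth hormone induces, was not tested and had 88 and 11 counts in KO_db/db (3.61 and 0.267 CPM), 0 and 3 counts in db/db, and 1, 1 and 3 counts in db/+. Its highest value was in KO_db/db mouse 1, the library with the highest acinar level (139000 CPM, against 11600 CPM in mouse 2), whose part in it was not tested. The floors cover counting error only.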

How the data were processed

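Paired-end reads of poly-A RNA were quantified by the authors with kallisto on GRCm38, and the deposited values are estimated counts per gene, whole numbers with no normalization. The submitters' processing notes name bcl2fastq 2.19 and kallisto 0.44.0. kallisto divides reads among similar transcripts. All 35013 symbols were named, 0 columns were unused, and 34222 symbols matched GENCODE M21, which gave coordinates and exon lengths. Samples were grouped by their labels.

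Pairs of groups were fitted separately in R 4.3.3 with edgeR 4.0.16: filterByExpr (minimum count 10), TMM, the quasi-likelihood test and Benjamini-Hochberg adjustment over all genes tested, with a threshold of 0.05. The SE is the absolute log2 fold change over the square root of F. The CPM values come from the deposited counts with TMM over 7 libraries. On simulated data, 196 of 200 genes changed by 2 on the log2 scale were recovered in KO_db/db against db/db. The simulated counts had the same spread for every gene and no library that stood apart from its group. This checks that the fit works and does not give its power in the real libraries. Alternatives were DESeq2 1.42.0, RLE scaling, no filter, a replicate block by mouse number, a joint fit of all 7 libraries, acinar and Reg genes or Ins1 and Ins2 left out, each library left out in turn and, added after seeing the data, total-count scaling.

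The genes and lists were chosen with earlier results of these data known. Named genes are the 10 genes, Aldh1a3, Leprot, up to 4 genes per list with the largest called change in db/db against db/+, any list gene called in KO_db/db against db/db, ligands at 1 CPM or above, and the 3 nearest genes to Prlr and to Ghr. Tph1, Stat2, Ptpn1, Igf1 (under 1 CPM as a mean over 7 libraries), the ligands at 0 and the labels of further genes in the plot of lists were added after values were seen. No library was a copy of another. A few genes of the lists are not reported here by name.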

Additional observations from a re-analysis of the deposited data

How the results depend on the processing

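In KO_db/db against db/db, edgeR called 43 genes, 0 of the 9 JAK-STAT genes and 0 genes of the other lists. DESeq2 called 1374, 1 and 14, edgeR with no filter 1570, 1 and 17, total-count scaling (chosen after seeing the data) 1220, 1 and 13, all 7 libraries in one fit 818 genes and 11 list genes, and the replicate block 22 genes. Leaving out 1 library gave 0 to 225 genes, 0 JAK-STAT genes and 0 to 2 list genes. The share of called genes that were higher was 39.5%, and 54.3% with DESeq2, 51.2% with no filter and 61.6% with all 7 libraries. In db/db against db/+ the 5069 genes, 5 JAK-STAT genes and 30 list genes became 3331 to 4394, 2 to 5 and 21 to 27 without 1 library, and in KO_db/db against db/+ the 5081, 5 and 22 became 3060 to 4725, 3 to 6 and 12 to 25. With the replicate block the genes called were 4516 and 3786. Deviations of same-numbered mice from their group means had correlations from -0.108 to 0.0809. In a group of 2 mice the deviations mirror each other, so this cannot show whether the numbers name litters or batches. Reversed log2 fold changes were all of values not called in edgeR. With total-count scaling they were Prlr at -0.0426 and Jak2 at -0.0165 in KO_db/db against db/db, Stat3 at 0.47 in db/db against db/+, and Ghr at 0.11 and Stat5b at 0.0380 in KO_db/db against db/+. The others arose without 1 library: in KO_db/db against db/db, Socs3 ranged from -0.43 to 0.13 (highest without KO_db/db mouse 1) and Socs2 from -0.52 to 0.59 (0.26 without KO_db/db mouse 2, highest without db/db mouse 1), and in db/db against db/+, Ghr ranged from -0.0862 (without db/db mouse 2) to 0.14, Stat3 from -0.0954 to 0.11 (0.0027 without db/db mouse 2, highest without db/+ mouse 1) and Stat5a from -0.0914 (without db/+ mouse 1) to 0.0963. Apart from the filter, the left-out libraries and the scaling, which change the genes, samples or scale by construction, the cause was not tested. Depth limits what can be said of Lepr, of Sh2b2 in db/+ and of the ligands with 0 counts.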
